A study of Mus musculus with 6 samples.

Results

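Type I interferon-stimulated genes were followed in dorsal root ganglia (DRGs), the clusters of sensory neuron cell bodies beside the spinal cord. The members are the 38 rows of the gene read count table whose symbols belong to a list of antiviral interferon-stimulated genes, their STAT and IRF regulators and the receptor chains. The table holds 48440 rows in all, of which 18593 passed the filter on low counts and were tested, and all 38 members were among the genes tested. The rule uses no measured value, but the members and the lists below were chosen with earlier results of these data known. The shares of all genes set beside them are therefore descriptive only.

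Male wild-type mice received AAV5, an adeno-associated virus used as a gene carrier, by microinjection into the L3/4 DRGs of 1 side, and those DRGs were collected for RNA sequencing. The control group, AAV5-*Gfp*, carried the gene for green fluorescent protein and has 3 libraries. The other group, AAV5-*NIS* V1 and V2, received a mixture of viruses for both variants of *NIS-lncRNA*, a long noncoding RNA that rises in the DRG after nerve injury, and also has 3 libraries. The purpose was to find genes downstream of this RNA, so each result below compares AAV5-*NIS* V1 and V2 with AAV5-*Gfp*. Both groups therefore share the surgery and the capsid, while the virus differs between them, so that effects of the RNA and of its virus preparation cannot be told apart. The descriptions give both 5 and 4 weeks after microinjection for the collection and analysis of the tissue. CD1 mice were used for AAV5-*V1* or AAV5-*V2* microinjections in the same work, while the strain of the sequenced mice is not named separately and their age is not given in the sources used here. No description says whether the 3 libraries of a group came from separate mice, so that p-values measure the spread between these libraries.

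Type I interferons are secreted proteins that bind the receptor chains IFNAR1 and IFNAR2. The kinases JAK1 and TYK2 then act on STAT proteins, among them STAT2, which join IRF9 into the complex ISGF3 and bind interferon-stimulated response elements (ISREs) in the promoters of antiviral genes. Interferon gamma acts through another receptor and on gamma-activated sites (GAS), and many genes respond to both kinds of interferon. Sensory neurons, glia and macrophages all have this pathway.

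Promoter windows are shown first, because a shared ISRE is the sequence feature by which many of these genes are known. RefSeq windows of 250 bases before to 50 bases after the transcription start (GRCm38.p6) were matched by symbol to 30 of the 38 members. The other 8 are *Dhx58*, *Parp14*, *Rtp4*, *Oas2*, *Mx2*, *Mx1*, *Usp18* and *Parp9*. An ISRE core was searched as GAAANNGAA, which reads TTCNNTTTC on the other strand, and a GAS as TTCNNNGAA, which reads the same on both strands. The 6 windows below were picked because they set genes with clear rises (*Bst2*, *Oas1a*, *Trim30a* and *Irf1*) beside 1 member that missed the adjusted threshold (*Isg15*) and 1 with no difference in its means (*Ifit3*). Reads of *Ifit3* may be split with its copy *Ifit3b*, as given below. Each runs 5′ to 3′ in the direction of the gene, with the matched letters in capitals. *Irf1* and *Trim30a* have a second annotated start whose window is not printed.
*Bst2*, chr8:71537423-71537722, minus strand: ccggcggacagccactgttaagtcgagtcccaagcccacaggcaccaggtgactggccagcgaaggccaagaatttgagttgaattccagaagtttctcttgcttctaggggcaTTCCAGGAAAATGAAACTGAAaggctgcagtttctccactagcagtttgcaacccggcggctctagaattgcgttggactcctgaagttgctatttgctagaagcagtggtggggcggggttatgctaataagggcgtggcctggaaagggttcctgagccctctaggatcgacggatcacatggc
*Oas1a*, chr5:120907476-120907775, minus strand: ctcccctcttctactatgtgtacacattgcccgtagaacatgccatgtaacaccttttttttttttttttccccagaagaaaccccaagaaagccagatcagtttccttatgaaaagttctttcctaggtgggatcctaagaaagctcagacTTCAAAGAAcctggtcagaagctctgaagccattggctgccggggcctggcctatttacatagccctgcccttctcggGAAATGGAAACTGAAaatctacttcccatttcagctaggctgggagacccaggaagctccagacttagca
*Trim30a*, chr7:104465144-104465443, minus strand: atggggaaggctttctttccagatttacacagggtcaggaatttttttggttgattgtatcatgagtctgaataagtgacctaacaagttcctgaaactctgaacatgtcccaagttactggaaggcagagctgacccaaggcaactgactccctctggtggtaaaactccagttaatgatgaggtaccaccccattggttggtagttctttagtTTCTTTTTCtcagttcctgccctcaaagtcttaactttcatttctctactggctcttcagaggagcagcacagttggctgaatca
*Irf1*, chr11:53769764-53770063, plus strand: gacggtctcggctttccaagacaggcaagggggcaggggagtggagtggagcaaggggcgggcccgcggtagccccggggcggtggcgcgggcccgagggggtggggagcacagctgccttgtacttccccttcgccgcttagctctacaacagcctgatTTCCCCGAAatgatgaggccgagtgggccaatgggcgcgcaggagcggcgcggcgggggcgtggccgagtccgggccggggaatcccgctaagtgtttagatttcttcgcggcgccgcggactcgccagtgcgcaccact
*Isg15*, chr4:156200769-156201068, minus strand: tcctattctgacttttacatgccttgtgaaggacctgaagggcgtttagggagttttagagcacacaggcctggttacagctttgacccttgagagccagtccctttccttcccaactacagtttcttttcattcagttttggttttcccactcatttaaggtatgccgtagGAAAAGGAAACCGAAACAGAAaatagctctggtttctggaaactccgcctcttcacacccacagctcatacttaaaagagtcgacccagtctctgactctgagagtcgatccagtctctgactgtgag
*Ifit3*, chr19:34583279-34583578, plus strand: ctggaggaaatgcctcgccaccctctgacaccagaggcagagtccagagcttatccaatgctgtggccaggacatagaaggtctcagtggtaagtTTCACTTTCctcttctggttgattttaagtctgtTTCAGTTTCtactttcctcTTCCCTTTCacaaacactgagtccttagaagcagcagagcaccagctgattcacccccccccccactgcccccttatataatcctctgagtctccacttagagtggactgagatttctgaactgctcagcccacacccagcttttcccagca

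Positions in these windows count from the start, with the first transcribed base as 1. *Bst2* had overlapping ISRE cores at -130 and -124, and a GAS at -136 that overlaps only the core at -130. *Oas1a* had overlapping cores at -20 and -14 and a GAS at -98. *Trim30a* had 1 core at -35 and *Irf1* had a GAS at -90 and no core. *Isg15* held 3 overlapping cores at -78, -72 and -66, and *Ifit3* held 3 at -155, -121 and -102, read on the other strand. A gene was counted when any of its windows held a match. An ISRE core was found in 17 of the 30 members with a window (56.7%) and in 9.06% of the 12901 genes tested with a window. A GAS was found in 10 of 30 members (33.3%) and in 8.53% of those genes tested. The ISRE core was in 8 of 14 members that rose and in 9 of 16 that did not pass the test. The GAS was in 4 of 14 and 6 of 16. A match describes letters only, and gives no evidence that a factor was bound.

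Many of the 38 genes were higher with AAV5-*NIS* V1 and V2. With an adjusted p under 0.05 (edgeR's quasi-likelihood test, Benjamini-Hochberg over all 18593 genes), 19 members rose and 0 fell, whereas 10.1% of all genes tested rose and 5.27% fell. The 19 rises lay between 0.46 and 1.69 on the log2 scale with a median of 1.04, and 10 of them were at least 2-fold. With an unadjusted p under 0.05, 29 members were higher and 0 lower (19.2% of all genes were higher), and DESeq2 and limma-voom also called 0 lower. The median log2 fold change of the 38 members was 0.66, compared with -0.0003 over all genes tested. In 29 members every AAV5-*NIS* V1 and V2 library lay above every AAV5-*Gfp* library, as in 23.4% of all genes, whereas 1 member lay below and 8 overlapped. For the counts of members by role and by neighbourhood below, the shares of all genes tested are these 10.1% and 23.4%. Levels are given as CPM, the counts scaled to normalized library size.

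**Figure D1:**
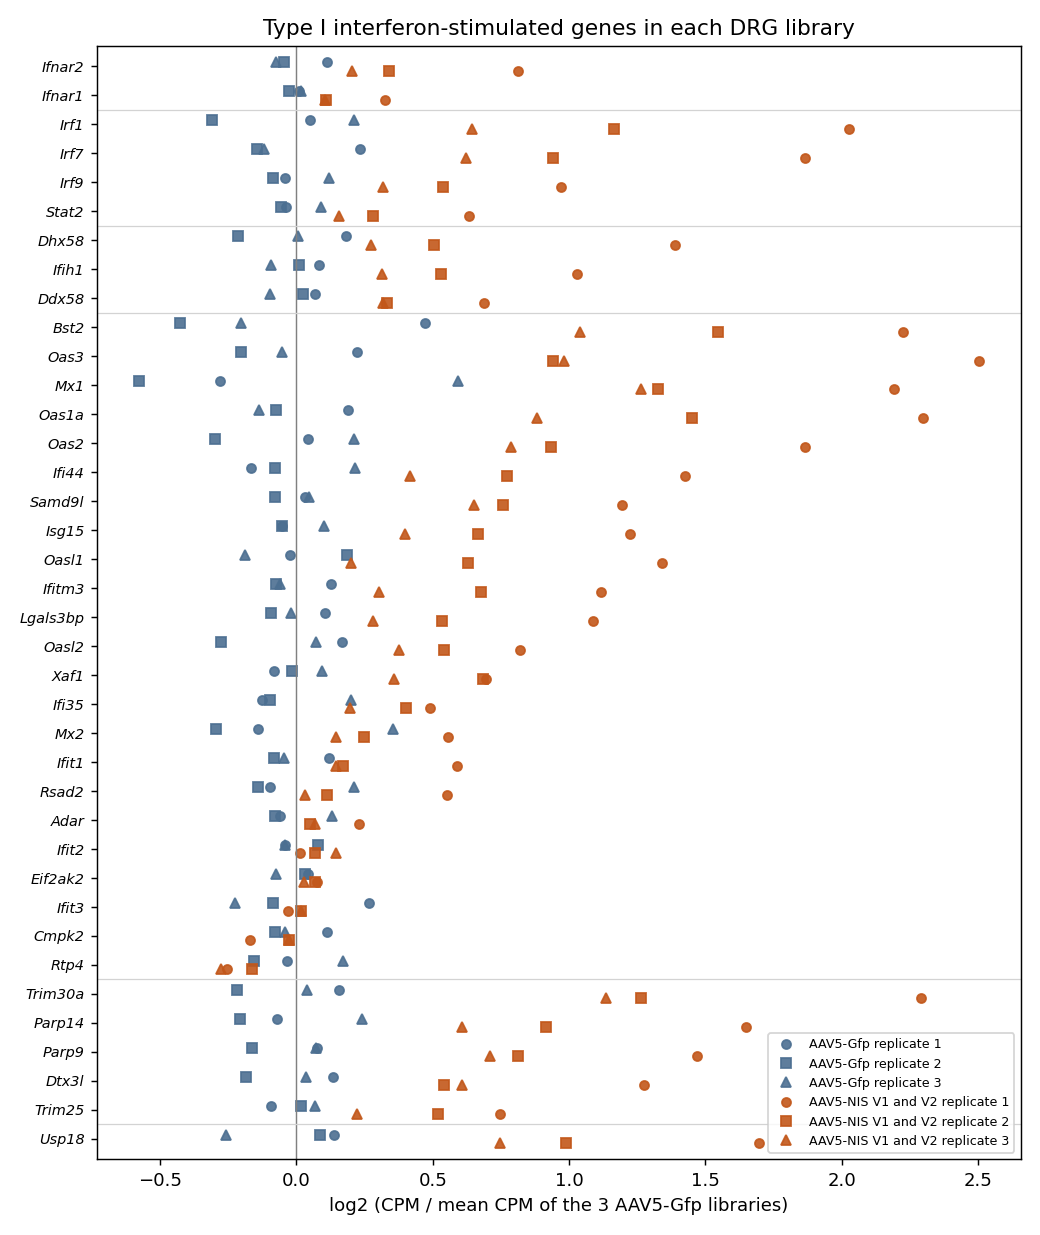
Log2 ratio of CPM in each of the 6 libraries to the mean CPM of the 3 AAV5-*Gfp* libraries, for the 38 members in blocks by role (receptors, regulators, sensors, effectors, ligases, inhibitor). AAV5-*NIS* V1 and V2 replicate 1 (orange circles) was the highest library in 34 of 38 members.

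The size of the difference varied between the libraries of AAV5-*NIS* V1 and V2. Relative to the mean CPM of AAV5-*Gfp*, the median log2 ratio of the 38 members was 1.06 in replicate 1, 0.54 in replicate 2 and 0.32 in replicate 3, against 0.06, -0.08 and 0.04 in the 3 AAV5-*Gfp* libraries. Replicate 1 was the highest of the 6 libraries in 34 members, all 19 that rose among them, and in 33.1% of all genes tested. In replicate 2, 31 members were above all 3 AAV5-*Gfp* libraries, and in replicate 3, 30 were. AAV5-*Gfp* replicate 2 was the lowest library in 22 members. The matching shares of all genes were not computed for these counts, so they only describe the members. Total counts were between 32025612 and 34764282 per library, and a member had between 16 and 3357 counts in a library.

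The receptor comes first in the pathway, and neither of its chains passed edgeR's test. *Ifnar1*, the signalling chain that all type I interferons engage, reached 2090, 2187 and 2031 counts with AAV5-*Gfp* and 2652, 2310 and 2374 with AAV5-*NIS* V1 and V2. Counts are given throughout in the order of replicates 1, 2 and 3. Its level was 64.3 ± 1.06 with AAV5-*Gfp* and 73.1 ± 6.53 with AAV5-*NIS* V1 and V2 (mean ± SD, n = 3 each). The log2 fold change was 0.18 ± 0.08 (SE), with an adjusted p of 0.136. *Ifnar2*, the chain that binds the ligand most tightly, had 860, 829 and 732 counts, and 1425, 1039 and 976. This was a log2 fold change of 0.48 ± 0.16 with an adjusted p of 0.0790, whereas DESeq2 gave *Ifnar2* an adjusted p of 0.0344. In both chains every AAV5-*NIS* V1 and V2 library lay above every AAV5-*Gfp* library, as in 23.4% of all genes. *Ifnar1* and *Ifnar2* both lie on chromosome 16 without overlapping each other. *Ifnar2* overlaps *Gm21970* on the same strand, so that *Ifnar2* and *Gm21970* may share reads, whereas *Ifnar1* overlaps no annotated gene.

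Among the 4 regulators, 3 rose (10.1% of all genes tested). In all 4 every AAV5-*NIS* V1 and V2 library lay above every AAV5-*Gfp* library, as in 23.4% of all genes. *Irf1*, a transcription factor that both kinds of interferon induce, had 740, 620 and 800 counts with AAV5-*Gfp* and 2970, 1655 and 1188 with AAV5-*NIS* V1 and V2. The level went from 22.2 ± 3.93 to 58.2 ± 28.8 CPM, and the log2 fold change was 1.39 ± 0.33 (adjusted p = 0.0357). *Irf7*, which drives the later wave of interferon production, had 99, 82 and 75 counts and then 313, 167 and 138. It rose by 1.24 ± 0.33 on the log2 scale (adjusted p = 0.0446). Without AAV5-*NIS* V1 and V2 replicate 1 the log2 fold change of *Irf7* was 0.79. *Irf9*, the DNA-binding part of ISGF3, had 396, 412 and 428 counts and then 815, 610 and 540, a log2 fold change of 0.64 ± 0.17 (adjusted p = 0.0453). *Stat2*, which with IRF9 is part of ISGF3, had 930, 985 and 981 counts and then 1509, 1196 and 1129, and its log2 fold change of 0.37 ± 0.13 did not pass (adjusted p = 0.0866). *Irf1* overlaps *Gm17334* and *Irf7* overlaps *Phrf1* on the opposite strand, while *Irf9* overlaps *Rnf31* on the same strand, and the counting rule for such reads is not given in the sources used here.

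**Figure D2:**
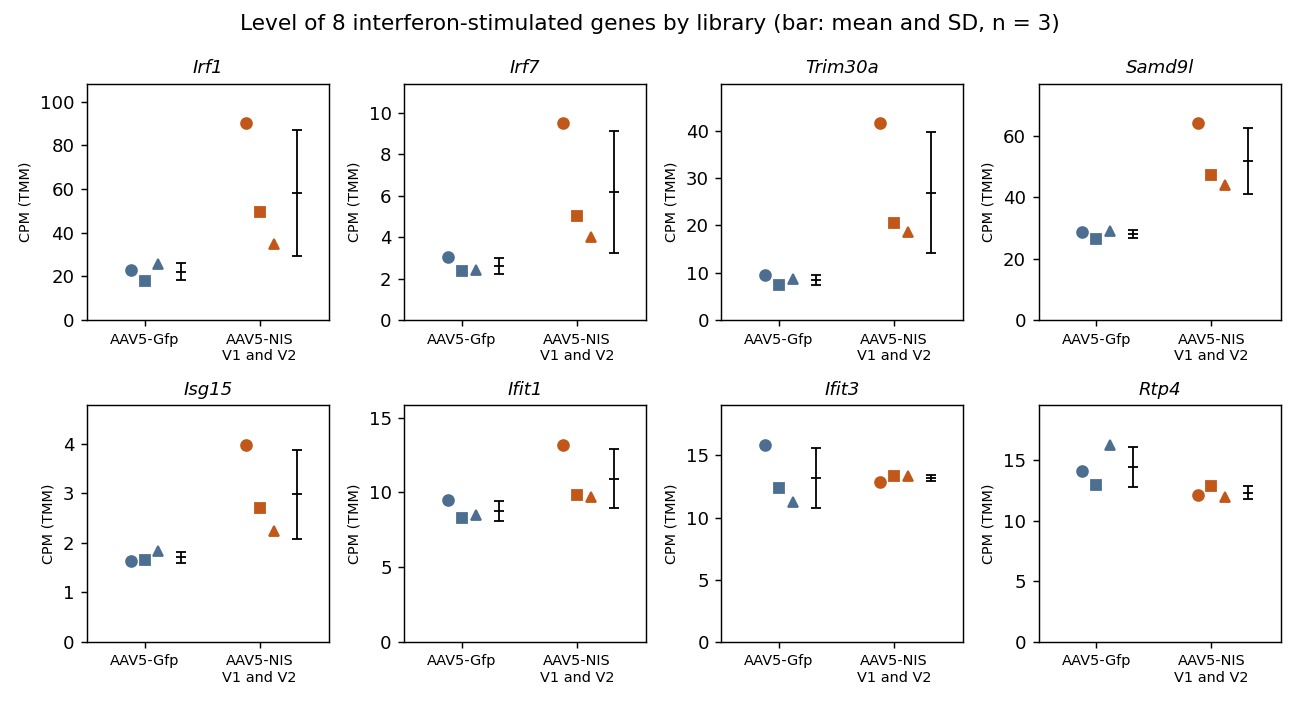
Level in CPM (normalized by TMM) of 8 members in each library, with AAV5-*Gfp* in blue, AAV5-*NIS* V1 and V2 in orange, circles, squares and triangles for replicates 1, 2 and 3, and bars for the mean and SD (n = 3). *Irf1*, *Irf7*, *Trim30a* and *Samd9l* rose, *Isg15* and *Ifit1* had groups apart without passing the adjusted test, *Ifit3* had the same mean of 13.2 CPM in both groups, and *Rtp4* was 14.4 and 12.3 CPM. Reads of *Ifit3* may be split with *Ifit3b*, and their sum was 20.5 and 24.3 CPM.

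The cytosolic sensors of viral RNA form a group of 3 genes, of which 2 rose (10.1% of all genes tested). *Ddx58*, which encodes RIG-I, had 859, 896 and 742 counts with AAV5-*Gfp* and 1349, 1065 and 1087 with AAV5-*NIS* V1 and V2, a log2 fold change of 0.46 ± 0.11 (adjusted p = 0.0396). *Ifih1*, which encodes MDA5, had 401, 409 and 343 counts and then 789, 564 and 501, a log2 fold change of 0.66 ± 0.18 (adjusted p = 0.0494). Without AAV5-*NIS* V1 and V2 replicate 1 the value for *Ifih1* was 0.43. *Dhx58*, which encodes LGP2, had 76, 62 and 65 counts and then 179, 98 and 86. Its groups did not overlap, but the log2 fold change of 0.81 ± 0.31 had an adjusted p of 0.112. *Dhx58* also overlaps the antisense gene *Dhx58os*.

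All 5 members that attach ubiquitin or ADP-ribose rose (10.1% of all genes tested), with a median log2 fold change of 1.04. *Trim30a*, a mouse TRIM protein that restrains TLR signalling, had 305, 253 and 272 counts with AAV5-*Gfp* and 1368, 679 and 640 with AAV5-*NIS* V1 and V2. This was 3.17-fold, or 1.66 ± 0.31 on the log2 scale (adjusted p = 0.0199). *Parp14*, an ADP-ribosyltransferase active in macrophages, had 998, 977 and 1198 counts and then 3357, 2040 and 1699, 2.18-fold (adjusted p = 0.0330). *Parp9* had 482, 439 and 465 counts and then 1292, 828 and 795, 2.05-fold (adjusted p = 0.0227). Its partner *Dtx3l*, the E3 ligase of the PARP9 complex, had 434, 374 and 392 counts and then 977, 595 and 642, 1.80-fold (adjusted p = 0.0361). *Trim25*, the ligase that activates RIG-I, had 570, 661 and 617 counts and then 1040, 899 and 754, 1.43-fold (adjusted p = 0.0438). The SD with AAV5-*NIS* V1 and V2 was large beside the mean in *Trim30a* (26.9 ± 12.8 CPM) and smaller in *Trim25* (26.9 ± 4.82 CPM). *Usp18*, the protease that removes ISG15 and blocks signalling at IFNAR2, is the inhibitor among the members. It had 106, 110 and 78 counts and then 318, 197 and 172, and it rose 2.30-fold (SE 0.26 on the log2 scale, adjusted p = 0.0287).

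*Parp14*, *Dtx3l* and *Parp9* lie close together on chromosome 16 (GRCm38). *Parp14* spans chr16:35832874-35871544 on the minus strand, *Dtx3l* spans chr16:35926511-35939151 on the minus strand and *Parp9* spans chr16:35938470-35972605 on the plus strand. The starts of *Dtx3l* and *Parp9* overlap, so that without strand their shared reads cannot be told apart.

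The 23 antiviral effectors, the largest role, had log2 fold changes from -0.23 to 1.69. Of these, 8 rose (10.1% of all genes tested), and the median log2 fold change was 0.59. In 14 every AAV5-*NIS* V1 and V2 library lay above every AAV5-*Gfp* library, as in 23.4% of all genes. *Bst2*, which encodes tetherin and holds budding virions at the cell surface, had the largest fold change of the 38. It had 137, 79 and 83 counts with AAV5-*Gfp* and 471, 298 and 216 with AAV5-*NIS* V1 and V2, a 3.22-fold difference (log2 1.69 ± 0.35, adjusted p = 0.0250). *Mx1*, a dynamin-like GTPase that traps viral nucleocapsids, had 48, 42 and 85 counts and then 272, 151 and 149, 3.17-fold (adjusted p = 0.0301). *Samd9l*, an inhibitor of viral protein synthesis, had the smallest adjusted p of the members. It had 926, 921 and 904 counts and then 2114, 1580 and 1511, from 28.1 ± 1.31 to 51.9 ± 10.8 CPM (log2 fold change 0.89 ± 0.14, adjusted p = 0.0155). *Ifitm3*, which blocks the fusion of viruses with endosomes, had 656, 613 and 557 counts and then 1329, 991 and 788, 1.67-fold (adjusted p = 0.0440). *Xaf1*, a proapoptotic protein, had 340, 382 and 371 counts and then 594, 596 and 490 (log2 0.59 ± 0.12, adjusted p = 0.0234). Per kilobase of exon, *Ifitm3* was the most abundant member, with 27.5 CPM per kb with AAV5-*Gfp* and 45.8 with AAV5-*NIS* V1 and V2. The lowest per kb was *Oas3*, with 0.0752 and 0.240.

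The oligoadenylate synthetases, which sense double-stranded RNA and activate RNase L, and their relatives contribute 5 members. *Oas1a* had 57, 51 and 44 counts with AAV5-*Gfp* and 251, 141 and 98 with AAV5-*NIS* V1 and V2, 3.16-fold (log2 1.66 ± 0.36, adjusted p = 0.0278). *Oas2* had 46, 39 and 50 counts and then 166, 88 and 82, 2.43-fold (adjusted p = 0.0401). *Oas3* had 20, 16 and 16 counts and then 99, 34 and 36. Its fold of 3.17 was as large as that of *Oas1a*, but with an SE of 0.48 on the log2 scale the adjusted p was 0.0558. *Oasl2* had 644, 509 and 583 counts and then 1032, 861 and 791, 1.51-fold (adjusted p = 0.0419), and *Oasl1*, which limits the translation of *Irf7*, had 29, 36 and 25 counts and then 76, 47 and 36 (log2 fold change 0.79 ± 0.32, adjusted p = 0.124). *Oas1a* has close copies among its neighbours, so that its reads may be shared with them, as may those of *Trim30a*, *Ifitm3* and the *Ifit* genes with theirs.

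A further 4 effectors did not pass the adjusted test but had every AAV5-*NIS* V1 and V2 library above every AAV5-*Gfp* library, as in 23.4% of all genes. *Isg15*, a ubiquitin-like modifier, had only 53, 57 and 57 counts with AAV5-*Gfp* and 131, 90 and 77 with AAV5-*NIS* V1 and V2. The log2 fold change was 0.80 ± 0.24 (adjusted p = 0.0597). *Ifi44*, an interferon-induced cytoplasmic protein, had 42, 48 and 53 counts and then 129, 83 and 67 (log2 0.93 ± 0.28, adjusted p = 0.0643). *Lgals3bp*, a secreted glycoprotein, had 1011, 946 and 897 counts and then 2035, 1403 and 1213 (log2 0.67 ± 0.19, adjusted p = 0.0554). *Ifit1*, which binds viral RNA that lacks the host cap methylation, had 307, 287 and 265 counts and then 434, 328 and 332 (log2 0.32 ± 0.15, adjusted p = 0.170). Its reads may be shared with those of *Ifit1bl1*. Their summed counts were 368, 378 and 329 and then 491, 378 and 405, or 10.95 ± 0.431 and 12.69 ± 1.94 CPM. In this sum the groups overlapped.

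**Figure D3:**
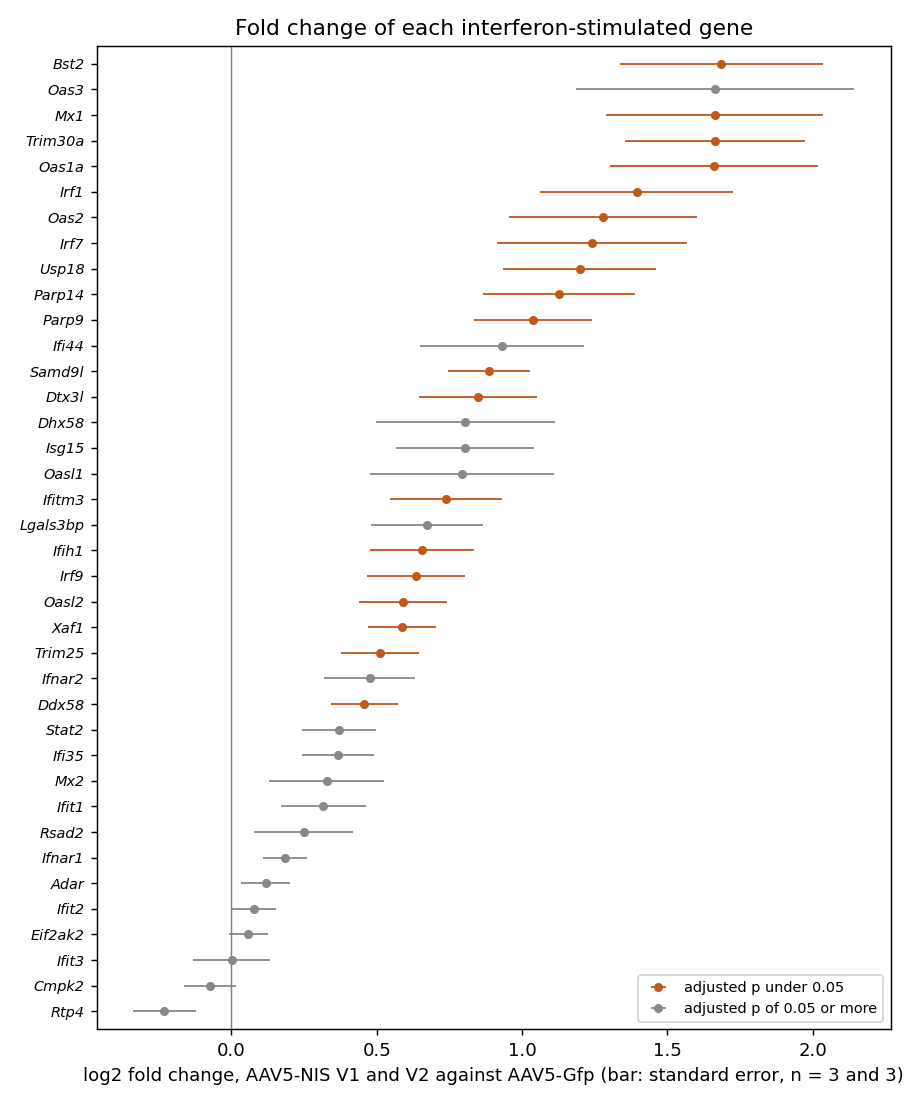
Log2 fold change of AAV5-*NIS* V1 and V2 against AAV5-*Gfp* (points) with its standard error (bars, n = 3 libraries per group) for the 38 members, ordered by size, with an adjusted p under 0.05 in orange. The values run from 1.69 in *Bst2* to -0.23 in *Rtp4*.

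Several well-known antiviral genes were near the same level in both groups or did not pass the test. *Ifit3*, a partner of IFIT1, had 512, 430 and 352 counts with AAV5-*Gfp* and 424, 444 and 458 with AAV5-*NIS* V1 and V2, with a log2 fold change of 0.00 ± 0.13 (adjusted p = 0.997). Its reads may be split with *Ifit3b*, and their sum is given below. *Rtp4*, a chaperone of membrane receptors, was the only member with every AAV5-*NIS* V1 and V2 library below every AAV5-*Gfp* library, with 455, 449 and 507 counts and then 398, 429 and 409. Its log2 fold change of -0.23 ± 0.11 did not pass (adjusted p = 0.173). *Rtp4* overlaps *Masp1* on the opposite strand and *Gm45338* on the same strand. The other 7 overlapping members are *Ifi35*, *Mx2*, *Rsad2*, *Adar*, *Ifit2*, *Eif2ak2* and *Cmpk2*, with log2 fold changes from -0.07 in *Cmpk2* to 0.37 in *Ifi35* and adjusted p between 0.0829 and 0.583. They include *Rsad2*, the antiviral enzyme viperin (0.25 ± 0.17), *Adar*, the RNA-editing deaminase (0.12 ± 0.08), and *Eif2ak2*, the double-stranded RNA kinase PKR (0.06 ± 0.07). *Mx2* is annotated as a polymorphic pseudogene in the mouse reference.

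Neighbouring members did not all move alike. *Ifit2*, *Ifit3* and *Ifit1* lie in this order within chr19:34550694-34650009, and 0 of these 3 rose. *Rsad2* and *Cmpk2* are adjacent on chromosome 12, and 0 of 2 rose. On chromosome 5, *Oas2*, *Oas3* and *Oas1a* lie between positions 120730333 and 120907521, and 2 of 3 rose. *Ifit3* has a near-identical neighbour, *Ifit3b*, with 268, 201 and 241 counts with AAV5-*Gfp* and 346, 395 and 372 with AAV5-*NIS* V1 and V2 (log2 0.61 ± 0.15, adjusted p = 0.0378). Because reads may be split between these genes, their sum is the safer value. It was 780, 631 and 593 counts and then 770, 839 and 830, or 20.5 ± 3.24 and 24.3 ± 0.903 CPM, and these groups overlapped.

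The ligands of the pathway had few or no counts. Of 21 interferon genes, 0 passed the filter on low counts, and 18, *Ifnb1* among them, had 0 counts in all 6 libraries, which allows up to 3 counts in a library for counting error only. *Ifna12* had 1 count in all and *Ifnz* had 4. *Ifng*, the ligand of the gamma receptor, had 0, 0 and 3 counts with AAV5-*Gfp* and 25, 9 and 15 with AAV5-*NIS* V1 and V2, too few to enter the test. A transcript seen in few cells or for a short time would not be detectable at this depth.

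The other genes of the pathway were read from lists of non-members. Of 104 listed genes 82 had enough counts for the test, of which 51 rose and 0 fell (68 and 0 with an unadjusted p), with a median log2 fold change of 0.88. For this list and those below, the share of all genes tested that rose was 10.1% (19.2% with an unadjusted p). Among 13 receptors and JAK-STAT genes, 5 rose. Both chains of the interferon gamma receptor passed, *Ifngr1* with a log2 fold change of 0.84 ± 0.17 (adjusted p = 0.0232) and *Ifngr2* with 0.38 ± 0.10 (adjusted p = 0.0414). *Irf5* and *Irf8*, factors of myeloid and B cells, rose by 1.31 and 2.56 on the log2 scale. The kinases did not pass, with log2 fold changes of -0.07 in *Jak1*, 0.73 in *Jak2* and 0.49 in *Tyk2*, and *Stat3* was at -0.01.

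Among 13 nucleic acid sensors and adaptors outside the member list 9 rose, with a median log2 fold change of 1.63. The endosomal receptors *Tlr7* and *Tlr9* had 1.63 ± 0.21 and 2.20 ± 0.36, the DNA sensor *Aim2* had 2.13 ± 0.31, and *Tmem173*, which encodes STING, had 1.89 ± 0.33. Of 6 inhibitors of interferon signalling, 1 rose, the phosphatase gene *Ptpn6* with 2.35 ± 0.35. In 5 of the 6 every AAV5-*NIS* V1 and V2 library lay above every AAV5-*Gfp* library, as in 23.4% of all genes. Among these, *Socs1* had 1.86 ± 0.52 (adjusted p = 0.0517) and *Socs3* had 0.97 ± 0.28 (adjusted p = 0.0552), and neither passed. Of 50 further interferon-stimulated genes tested, 36 rose, with a median of 0.93. The log2 fold changes of the 50 ran from -0.29 to 4.12. The 4 with the smallest adjusted p belong to class I antigen presentation. *B2m*, the light chain of class I molecules, had 99.3 ± 22.2 CPM with AAV5-*Gfp* and 396 ± 119 CPM with AAV5-*NIS* V1 and V2. The immunoproteasome subunits *Psmb9* and *Psmb8* had log2 fold changes of 2.40 ± 0.31 and 2.17 ± 0.28, and the peptide transporter *Tap1* had 2.31 ± 0.34.

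The sums of immune cell markers were also higher with AAV5-*NIS* V1 and V2. Within AAV5-*Gfp* they did not all follow the members, whose sum was highest in replicate 3, where the macrophage and monocyte sum was lowest. The summed CPM of the 38 members was 555 to 609 with AAV5-*Gfp* and 726 to 1093 with AAV5-*NIS* V1 and V2. Over the same libraries the sum of 7 macrophage and monocyte markers went from 108 to 155 up to 390 to 1258, and all 7 rose. The sum of 6 B and plasma cell markers went from 4.88 to 11.2 up to 213 to 293 with all 6 higher, and that of 6 T and natural killer cell markers from 1.91 to 6.32 up to 23.6 to 54.1 with 5 higher. Single genes made up much of the first 2 sums. *Lyz2* went from 64.1 to 93.7 up to 272 to 989 CPM, and *Jchain* from 1.04 to 3.87 up to 169 to 194 CPM. Plasmacytoid dendritic cells are known for secreting type I interferon. The sum of their 4 markers went from 12.2 to 15.0 up to 25.9 to 44.9 with 3 higher. Most of this sum was *Ccr9*, with 10.6 to 11.6 CPM with AAV5-*Gfp* and 19.1 to 29.4 CPM with AAV5-*NIS* V1 and V2. The sum thus mainly reflects 1 gene. No marker of these lists was at 0 in all AAV5-*Gfp* libraries. In all 4 immune sums and in the members' sum, AAV5-*NIS* V1 and V2 replicate 1 was the highest library, and it was also the highest in the endothelial, fibroblast and erythrocyte sums.

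The tissue label was checked with 9 sensory neuron markers, which were all detected. Their sum was 8974 to 9728 CPM with AAV5-*Gfp* and 5838, 8102 and 8490 CPM in AAV5-*NIS* V1 and V2 replicates 1, 2 and 3. *Rbfox3* fell among them, and the other 8 did not pass. Of the 4 satellite glia markers 1 rose, as did 1 of 6 endothelial markers, whose sum was 142 to 157 CPM with AAV5-*Gfp* and 159 to 195 CPM with AAV5-*NIS* V1 and V2. The endothelial marker that rose was *Pecam1*, from 26.7 to 49.1 CPM. *Tek* was lower without overlap (17.55 and 15.07 CPM) and did not pass. *Cdh5*, *Cldn5*, *Kdr* and *Vwf* had overlapping groups, with log2 fold changes from -0.07 to 0.13. None of 5 Schwann cell, 4 fibroblast or 3 erythrocyte markers passed, and the fibroblast sum was 648 to 857 and 913 to 1325 CPM. Within that sum the log2 fold changes were 1.18 in *Col1a1*, 0.43 in *Pdgfra*, 0.22 in *Dcn* and 0.01 in *Lum*, so the fibroblast markers did not move alike. In these bulk samples fewer cells of a type and less RNA per cell cannot be told apart, and the part of each cell type in the members' rise was not tested.

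**Figure D4:**
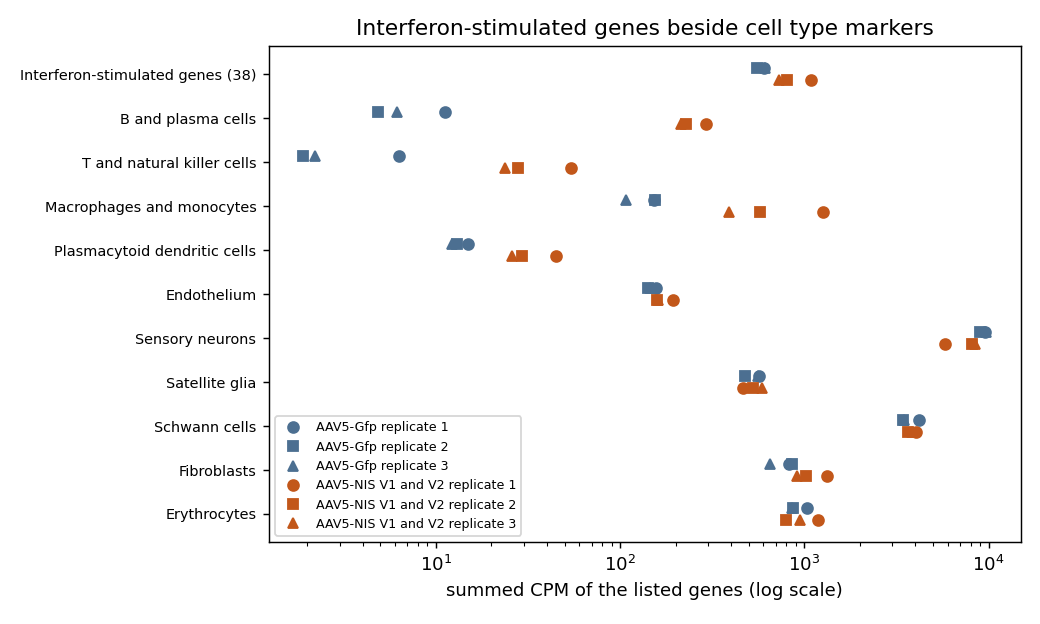
Summed CPM (log scale) of the 38 members and of each cell type marker list in the 6 libraries, with AAV5-*Gfp* in blue and AAV5-*NIS* V1 and V2 in orange. The members' sum lay between 555 and 609 CPM with AAV5-*Gfp* and between 726 and 1093 CPM with AAV5-*NIS* V1 and V2, and the 4 immune, the endothelial and the fibroblast sums were also higher without overlap, while the sensory neuron sum was lower without overlap. Within the endothelial and fibroblast lists the markers did not move alike, and *Pecam1* was the only one of them that rose.

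The count of rises depended on single libraries, controls included. Without AAV5-*Gfp* replicate 1, 2 or 3, 0 members passed the adjusted threshold in edgeR's test, and the share of all genes that rose was 1.35%, 0.0634% and 0.0792%. With an unadjusted p in those fits, 25, 23 and 26 members were higher (16.3%, 15.4% and 15.5% of all genes), and 0, 1 and 0 were lower. Without AAV5-*NIS* V1 and V2 replicate 1, 20 members rose (9.85% of all genes) while the median log2 fold change of the 38 was 0.43. Without replicate 2, 4 rose (5.4% of all genes), and these were *Parp9*, *Dtx3l*, *Trim30a* and *Samd9l*. Without replicate 3, 28 rose (13.1% of all genes). On all 6 libraries DESeq2 called 24 members (12.9% of all genes), the 19 above with *Isg15*, *Ifi44*, *Oas3*, *Lgals3bp* and *Ifnar2*. Limma-voom called 12 members (7.64% of all genes), and the calls of *Ifih1*, *Oas1a*, *Oas2*, *Irf7*, *Irf9*, *Trim25* and *Ifitm3* were lost (adjusted p between 0.0515 and 0.0712). With each library left out in turn at least 35 of the 38 members had a log2 fold change above 0.

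**Figure D5:**
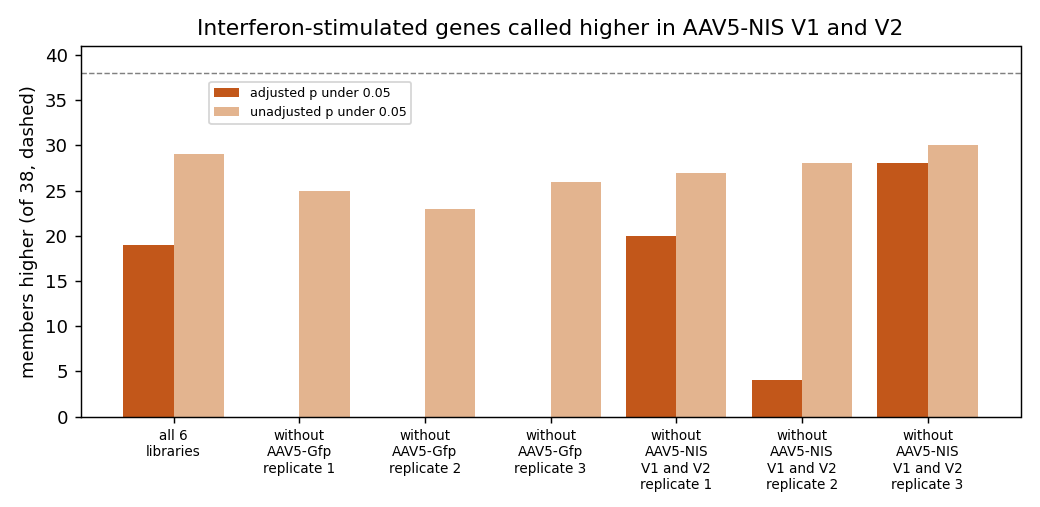
Number of the 38 members (dashed line) called higher by edgeR with all 6 libraries and with each library left out, at an adjusted (dark bars) and an unadjusted (light bars) p under 0.05. The adjusted count was 0 without any 1 of the AAV5-*Gfp* libraries, while the unadjusted count stayed between 23 and 30.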

How the data were processed

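The files deposited by the authors hold unnormalized counts, whole numbers for each gene in 1 table with a column per library. Libraries came from the TruSeq Stranded Total RNA kit, and the submitters' processing notes name GRCm38 (mm10). The aligner, the counter, the annotation, the use of strand and the handling of reads shared by several genes are not given in the sources used here, which leaves overlapping genes and near-identical copies uncertain. Of the 38 members, 16 overlap another gene annotated in GENCODE M21, which also gave coordinates and exon lengths.

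Counts were tested in R 4.3.3 with edgeR 4.0.16 (filterByExpr with the group, TMM, glmQLFit and glmQLFTest, no covariate) on the whole table, with Benjamini-Hochberg adjustment over 18593 genes and a threshold of 0.05. The SE is the absolute log2 fold change divided by the square root of F. The scripts were tested on simulated counts. CPM used TMM-scaled library sizes, and counts per library were between 32025612 and 34764282. Libraries of 1 group differed by more than sampling noise (chi-square per degree of freedom 8.83 to 52.8). Alternatives were DESeq2 1.42.0, limma-voom (limma 3.58.1), other scalings, no filter, other thresholds, a replicate block and leaving out each library. Members and lists were chosen with earlier results of these data known. Values in every library are given for all members called, for regulators and receptor chains, and for members not called whose groups did not overlap, and the rest are given by range. Non-members are named from the lists, at most 6 per list except ligands and JAK-STAT genes, and 1 listed gene is not reported here. *Ifit3b* and *Ifit1bl1* were named outside this rule, as copies of *Ifit3* and *Ifit1*, after their values were seen, and *Ifit3* is given per library for the same reason.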

Additional observations from a re-analysis of the deposited data

How the results depend on the processing

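The number of members that fell with an adjusted p was 0 under every setting tried (with an unadjusted p it was 1 under upper quartile normalization and 1 without AAV5-*Gfp* replicate 2), and the other scalings, the lack of a filter and DESeq2 gave 18 to 24 members higher. Limma-voom gave 12 members higher, an unadjusted p gave 29, and an adjusted p with a 2-fold limit gave 10. Over all genes these settings moved the counts of 1872 higher and 980 lower as follows. DESeq2 gave 1606 lower, an adjusted p under 0.1 gave 2898 higher and 2030 lower, an unadjusted p gave 3577 and 2878, and the 2-fold limit gave 1052 and 47, with 32 of the other pathway genes higher in place of 51. Leaving out 1 library at a time gave 0 to 28 members higher, 0 to 60 other pathway genes higher, 12 to 2474 genes higher and 0 to 1446 lower over all genes. The cause was not tested, although each of these fits has 1 library fewer. With a replicate block, 21 members, 59 other pathway genes, 2118 genes higher and 1341 lower were called. The deviations of libraries with the same number correlated at 0.04, 0.07 and 0.11, each library correlating best with its own number, but no source says that a number marks a shared mouse or day. Arms of 3 libraries and counts as low as 16 limit what could be called.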
